A study of Mus musculus with 30 samples.

Results

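Angiotensin and endothelin receptors, the enzymes and ligand that feed them, and the nitric oxide and cyclic GMP pathway were followed in the stroma of the newborn mouse thymus. The 10 genes were chosen by symbol from the 18847 genes of the expression table: Ace, Agtr1a and Agtr2 of the angiotensin system, Edn1, Ednra and Ednrb of the endothelin system, and Nos3, Gucy1a3, Gucy1b3 and Pde5a of the nitric oxide pathway. All 10 were found, and all 10 passed the filter on low values that is given further on.

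The libraries came from thymi of B6.SJL mice of mixed sex. The pups received aflibercept, also called VEGF-Trap, or human Fc protein as control on postnatal day 1, and the thymus was taken on postnatal day 3, that is 2 days after injection. Aflibercept carries binding parts of VEGFR1 and VEGFR2 and acts as a decoy for VEGF-A, the main growth factor of blood vessel endothelium. Digested thymi were depleted of CD45-positive blood cells on magnets. From cells negative for CD3, CD4, CD8, CD45 and Ter119, 5 populations were then sorted in both treatments: EpCAM-positive cells with high Ly51 (cortical epithelium, cTEC), EpCAM-positive cells with low or no Ly51 (medullary epithelium, mTEC), CD31-positive endothelium, and CD140a-positive and CD146-positive mesenchyme without EpCAM and CD31. Each of the 5 populations had 2 control and 4 Trap libraries, 30 in all. The number of pups behind a library, and whether populations were sorted from shared pups, are not given in the labels, so a p-value here reflects library-to-library spread alone, some of which may be technical.

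Blood vessels set their width through signals exchanged between endothelium and the contractile mural cells (pericytes and smooth muscle) around it. Angiotensin II, made by the angiotensin-converting enzyme, and endothelin-1, made by endothelium, act on Gq-coupled receptors to contract mural cells. Nitric oxide from endothelium acts in the other direction: it switches on soluble guanylate cyclase in the mural cell, the cyclic GMP made there relaxes the cell, and phosphodiesterase 5 breaks cyclic GMP down.

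Levels are given in FPKM (fragments per kilobase of a gene relative to all fragments of the library), so levels of different genes can be set side by side per length. Differences are on the log2(FPKM + 1) scale with the standard error (SE) of a limma fit over all 30 libraries, and they understate the change of genes at low levels. Adjustment was by Benjamini and Hochberg over the 16425 genes that reached 1 FPKM in at least 2 libraries, and an adjusted p under 0.05 is called a pass. The fit uses 1 spread per gene, shared by all groups of libraries. A pair said not to differ beyond the spread is one that did not pass. The read depth behind the values is unknown, and 0 FPKM means that a gene is listed at 0. The libraries' FPKM sums ranged from 184608 to 241993, with 10298 to 13661 genes at or above 1 FPKM. In these sorted bulk samples, fewer cells of a type and less RNA per cell cannot be told apart.

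Each sorted population had the highest sum of the markers of its own label, although the 2 epithelial populations shared theirs in part. The sum of 12 pericyte and smooth muscle markers was 5132.54 to 6663.04 FPKM in CD146-positive mesenchyme, 171.66 to 279.61 in CD140a-positive mesenchyme and 187.48 to 236.87 in endothelium. It was 512.57 to 765.24 in mTEC, where 1 of the 12 markers, Rgs5, stood at 538.7 ± 102.1 FPKM (SD, n = 6). The sum of 10 fibroblast markers was 5372.37 to 7449.31 in CD140a-positive mesenchyme and at most 422.9 in CD146-positive mesenchyme. The sum of 12 endothelial markers was 1624.18 to 1858.46 in endothelium and at most 41.5 in any other library. The sum of 8 cTEC markers was 926.43 to 1382.52 in cTEC and at most 154.77 in mTEC, and the sum of 8 mTEC markers was 1021.13 to 2778.48 in mTEC and 253.28 to 874.56 in cTEC. A sum of 4 leukocyte markers reached 866.15 to 3259.81 in the epithelial libraries, where it was mostly Cd74, a gene of antigen presentation, and at most 39.81 in any other library. The sum of 8 thymocyte markers was 48.65 and 84.57 FPKM in the cTEC controls and 83.51 to 137.03 in the cTEC Trap libraries. In any other library it was at most 12.79. A single endothelial library, Trap replicate 2, stood apart in a sum of 5 epithelial markers, at 44.36 FPKM against 3.25 to 13.49 in the other 5.

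The population with the highest mean differed between members. Edn1, Nos3 and Ace had their highest mean in endothelium. Ednra, Ednrb, Gucy1a3, Gucy1b3 and Pde5a had it in CD146-positive mesenchyme, and Agtr2 in CD140a-positive mesenchyme. Agtr1a stood at a like level in both mesenchymal populations. Of the 100 differences of a member between 2 populations, 77 passed. Between many populations a large share of all genes passed too, and the members' counts are to be read against it. The members were chosen with earlier results of these data known, so a count above that share describes these genes and tests nothing. Between CD140a-positive and CD146-positive mesenchyme 8 of 10 members passed, against 31.2% of all genes tested. Between CD146-positive mesenchyme and endothelium 9 of 10 passed, against 35.7%, and between CD140a-positive mesenchyme and endothelium 9 of 10, against 41%. Against cTEC, 8 of 10 members passed for CD140a-positive mesenchyme (43.9% of all genes), for CD146-positive mesenchyme (41.6%) and for endothelium (44.7%). Against mTEC, 7 of 10 passed for CD140a-positive mesenchyme (57.2% of all genes), 8 of 10 for CD146-positive mesenchyme (55.7%) and 7 of 10 for endothelium (57.8%). Between cTEC and mTEC 5 of 10 passed, against 41.2% of all genes, so that count was near the background.

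**Figure D1:**
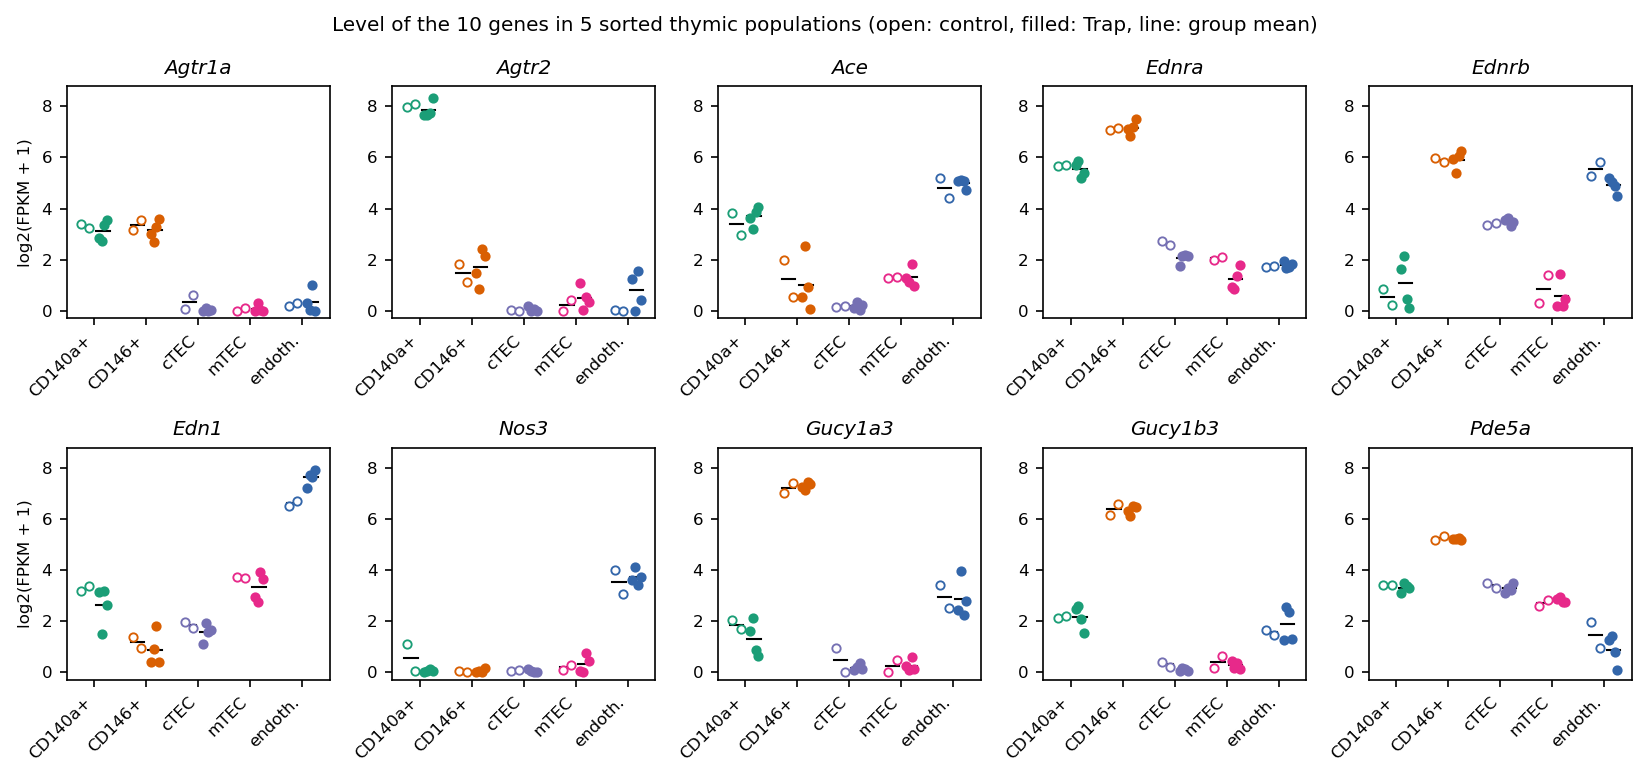
Level of each member as log2(FPKM + 1) in the 5 sorted populations. Open points are control libraries, filled points are Trap libraries, and lines are group means. Edn1, Nos3 and Ace are highest in endothelium, Agtr2 in CD140a-positive mesenchyme, and Gucy1a3 and Gucy1b3 in CD146-positive mesenchyme.

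Agtr2 encodes the type 2 angiotensin II receptor, which in textbook accounts opposes many effects of the type 1 receptor and is abundant in fetal mesenchyme. It lies at chrX:21484544-21489164 on the plus strand (GRCm38, GENCODE M21, as for the other members). Agtr2 stood at 247.84 and 275.31 FPKM in the control libraries of CD140a-positive mesenchyme and at 202.46, 202.69, 215.76 and 320.94 FPKM in its Trap libraries. In CD146-positive mesenchyme the 6 libraries ranged from 0.79 to 4.27 FPKM (median 2.155). Every CD140a-positive library lay far above every other library, and the difference from CD146-positive mesenchyme was 6.36 ± 0.27 (SE, adjusted p = 4.76e-16). CD146-positive mesenchyme was above endothelium by 1.18 ± 0.27 (adjusted p = 0.0010). Endothelium (mean 0.607 FPKM), mTEC (0.365) and cTEC (0.0333) did not differ beyond their spread from their neighbours in this order.

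Agtr1a, at chr13:30336441-30382867 on the plus strand, encodes the type 1 angiotensin II receptor, the Gq-coupled receptor behind the pressor effect of the hormone. Its level was 9.58 and 8.45 FPKM in the controls and 6.28, 5.69, 9.37 and 10.65 in the Trap libraries of CD140a-positive mesenchyme. In CD146-positive mesenchyme it was 8 and 10.81 in the controls and 6.98, 5.50, 8.81 and 11.07 with Trap. Both populations therefore covered the same range, with means of 8.34 ± 1.96 and 8.53 ± 2.172 FPKM (SD, n = 6). Their difference was -0.03 (CD140a-positive minus CD146-positive, 95% interval -0.44 to 0.38, adjusted p = 0.973), and its sign turned under upper quartile scaling and quantile normalization. CD140a-positive mesenchyme was above endothelium by 2.94 ± 0.20 (adjusted p = 1.55e-12), and no endothelial or epithelial library reached 1 FPKM. The 2 angiotensin receptors were thus present in unlike proportions in the 2 kinds of mesenchyme. Agtr2 was 29.9 ± 4.67 times the level of Agtr1a in CD140a-positive mesenchyme (SD, n = 6) and 0.294 ± 0.135 times its level in the 5 CD146-positive libraries in which both reached 1 FPKM.

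Ace, at chr11:105967945-105989964 on the plus strand, encodes the angiotensin-converting enzyme, which is held on the endothelial surface and makes angiotensin II. It stood at 35.31 and 20.52 FPKM in the endothelial controls and at 32.44, 33.46, 32.43 and 25.66 in the endothelial Trap libraries. CD140a-positive mesenchyme held 6.86 to 15.69 FPKM (median 12.31), all below the lowest endothelial library, and the difference was 1.35 ± 0.32 (adjusted p = 0.0011). CD140a-positive mesenchyme was above CD146-positive mesenchyme by 2.42 ± 0.32 (adjusted p = 8.54e-07). CD146-positive mesenchyme (mean 1.59 FPKM) and mTEC (1.51) did not differ beyond their spread. The call that mTEC lay above cTEC (1.14 ± 0.32, adjusted p = 0.0052) was lost under quantile normalization (0.59, adjusted p = 0.130).

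The rest of the angiotensin system was read from 14 further enzymes, receptors and the ligand, of which 12 passed the filter. Between CD140a-positive and CD146-positive mesenchyme 3 were higher and 2 lower, with a median difference of -0.06 against -0.04 over all genes. As for the members, counts in this and the next lists are to be read against the 31.2% of all genes that passed in that comparison and the 35.7% that passed between CD146-positive mesenchyme and endothelium. Agt, the precursor of angiotensin, was 12.96 ± 4.12 FPKM in CD146-positive and 3.25 ± 1.14 in CD140a-positive mesenchyme (SD, n = 6), a difference of -1.64 ± 0.29 (adjusted p = 7.11e-05). Between CD146-positive mesenchyme and endothelium 6 were higher and 1 lower, with a median of 0.65 against 0.05.

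Edn1, at chr13:42301476-42307990 on the plus strand, encodes the precursor of endothelin-1. It stood at 90.89 and 103.60 FPKM in the endothelial controls and at 147.73, 209.17, 197.46 and 243.81 in the endothelial Trap libraries. Next in order came mTEC, with 5.79 to 14.32 FPKM (median 11.71), and endothelium lay above it by 3.60 ± 0.28 (adjusted p = 1.82e-11). The mean of CD140a-positive mesenchyme, 6.74 ± 2.75 FPKM (SD, n = 6), did not differ from that of mTEC beyond the spread (0.57 ± 0.28, adjusted p = 0.0866), although the call was made without CD140a-positive Trap replicate 3 (0.66) or mTEC Trap replicate 2 (0.66). CD140a-positive mesenchyme was above cTEC by 1.25 ± 0.28 (adjusted p = 0.00058). cTEC (mean 2.20 FPKM) and CD146-positive mesenchyme (1.09), the lowest of the 5, differed by 0.68 ± 0.28 (adjusted p = 0.0550). That pair passed with a pseudocount of 0.1 (CD146-positive minus cTEC -1.16, adjusted p = 0.0214), after rescaling to TPM (-0.97, adjusted p = 0.0397), under quantile normalization (-0.68, adjusted p = 0.0492) and with both replicate blocks. It also passed without CD140a-positive Trap replicate 2, CD146-positive Trap replicate 3, cTEC Trap replicate 1 or mTEC Trap replicate 3 (-0.83 to -0.68).

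Ece1, the enzyme that cuts big endothelin-1 into the active peptide, was among 5 further endothelin genes, of which 4 passed the filter. Ece1 reached 348.0 ± 34.0 FPKM in endothelium, 60.10 ± 11.17 in CD140a-positive mesenchyme and 27.06 ± 2.58 in CD146-positive mesenchyme (SD, n = 6). CD146-positive mesenchyme lay below endothelium by -3.63 ± 0.19 (adjusted p = 1.40e-14), and none of the other 3 passed in that comparison. Of endothelium and both mesenchymal populations, endothelium thus ranked first for the ligand and for its converting enzyme.

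Ednra, at chr8:77663031-77724464 on the minus strand, encodes the endothelin A receptor, the contractile receptor of smooth muscle. In CD146-positive mesenchyme it stood at 135.31 and 141.60 FPKM in the controls and at 138.01, 113.05, 145.60 and 181.11 with Trap. In CD140a-positive mesenchyme it ranged from 35.55 to 57.54 FPKM (median 49.83), below every CD146-positive library. The difference between the 2 was 1.54 ± 0.16 (adjusted p = 1.02e-08), and CD140a-positive mesenchyme lay above cTEC by 3.26 ± 0.16 (adjusted p = 1.18e-15). Levels in cTEC (3.86 ± 1.20 FPKM, SD, n = 6) were above those in endothelium (2.40 ± 0.25) by 0.59 ± 0.16 (adjusted p = 0.0028). Endothelium and mTEC (1.99 ± 1.07) did not differ beyond their spread, although this pair passed under quantile normalization (0.71).

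Ednrb, at chr14:103814625-103844402 on the minus strand, encodes the endothelin B receptor, which on endothelium releases nitric oxide and clears endothelin-1 and on smooth muscle can contract. It stood at 61.34 and 55.44 FPKM in the controls and at 61.17, 40.96, 65.52 and 75.74 in the Trap libraries of CD146-positive mesenchyme. In endothelium it was 38.07 and 55.91 in the controls and 35.95, 32.11, 28.58 and 21.44 with Trap. These 2 populations overlapped and differed by 0.67 ± 0.30 (adjusted p = 0.0845), a pair that passed under quantile normalization (0.81, adjusted p = 0.0240). Endothelium was above cTEC, at 10.05 ± 0.94 FPKM (SD, n = 6), by 1.79 ± 0.30 (adjusted p = 1.52e-05), and cTEC was above CD140a-positive mesenchyme by 2.63 ± 0.30 (adjusted p = 3.20e-08). The lowest levels were those of CD140a-positive mesenchyme (mean 1.16 FPKM) and mTEC (0.700), which did not differ beyond their spread. Ednrb is also known from Schwann cells, and 4 Schwann and neural markers summed to 3.93 to 16.91 FPKM in CD146-positive mesenchyme, 1.26 to 8.2 in CD140a-positive mesenchyme, 0.63 to 6.44 in mTEC, 0.01 to 4.55 in endothelium and 0.28 to 1.93 in cTEC. The part of Schwann cells in the level of Ednrb was not tested.

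The balance of the 2 endothelin receptors therefore differed between populations. In libraries in which both reached 1 FPKM, Ednra was 2.40 ± 0.221 times the level of Ednrb in CD146-positive mesenchyme (SD, n = 6), 0.393 ± 0.145 times in cTEC (n = 6) and 0.0742 ± 0.0255 times in endothelium (n = 6). The ranges of these 3 populations did not overlap. In CD140a-positive mesenchyme the ratio was 16.8 and 24.3 in the 2 libraries with the most Ednrb (3.43 and 2.1 FPKM). The other 4 held 0.08 to 0.8 FPKM of Ednrb, too little for a ratio, so these 2 values are the low end of that population. In mTEC a single library could be used, with a ratio of 2.075.

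**Figure D2:**
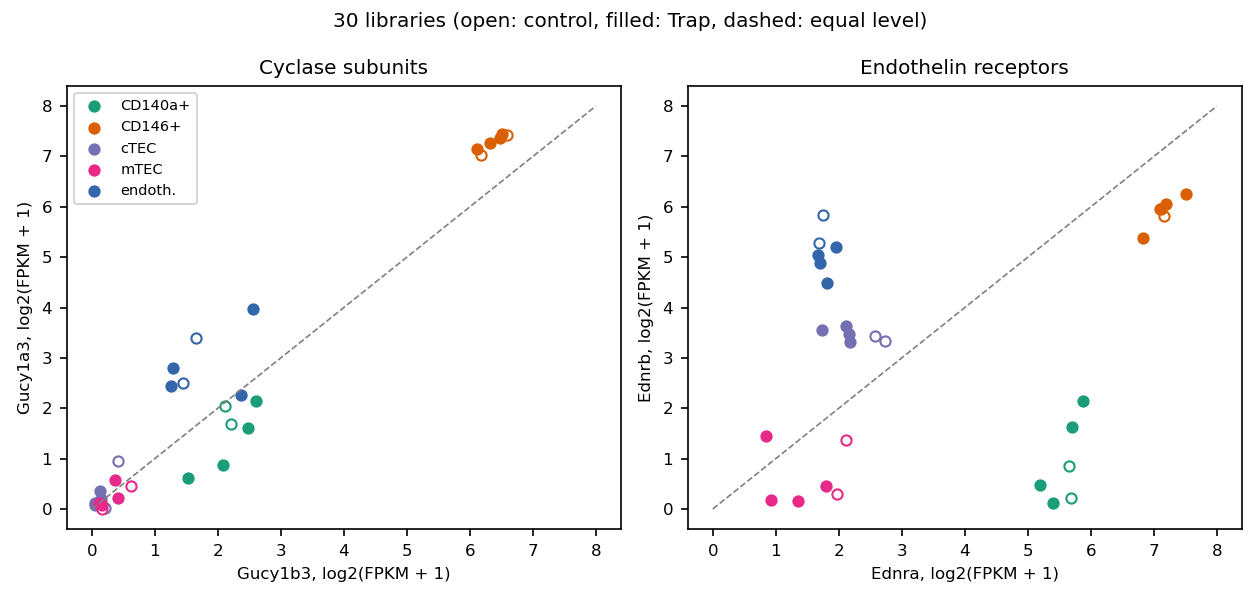
Each of the 30 libraries placed by the levels, as log2(FPKM + 1), of Gucy1b3 and Gucy1a3 (left) and of Ednra and Ednrb (right). Open points are controls, filled points are Trap libraries, and the dashed line marks equal levels. CD146-positive libraries lie together at the upper right on both sides, with a cyclase subunit ratio of 1.79 to 2.06. The endothelial and the cTEC libraries lie above the line for Ednrb.

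The stretches just upstream of the start are shown for a ligand, a receptor and a cyclase subunit whose levels were set apart between endothelium and CD146-positive mesenchyme or shared by them. Of the 10 members, 8 had an entry in the RefSeq promoter table (GRCm38.p6), and these 3 windows of 250 bases overlap no annotated exon. The Ednrb window lies inside the GENCODE span of the gene, before the RefSeq start. Each is written 5′ to 3′ on the strand of the gene, with motif matches in capitals. The Edn1 window is chr13:42301226-42301475 (plus strand), that of Ednrb is chr14:103843702-103843951 (minus strand) and that of Gucy1b3, named Gucy1b1 in RefSeq, is chr3:82074712-82074961 (minus strand).
Edn1: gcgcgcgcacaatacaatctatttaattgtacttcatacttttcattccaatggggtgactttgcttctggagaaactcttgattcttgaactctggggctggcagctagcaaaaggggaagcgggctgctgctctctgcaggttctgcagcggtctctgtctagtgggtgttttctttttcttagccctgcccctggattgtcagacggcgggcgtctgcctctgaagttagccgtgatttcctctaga
Ednrb: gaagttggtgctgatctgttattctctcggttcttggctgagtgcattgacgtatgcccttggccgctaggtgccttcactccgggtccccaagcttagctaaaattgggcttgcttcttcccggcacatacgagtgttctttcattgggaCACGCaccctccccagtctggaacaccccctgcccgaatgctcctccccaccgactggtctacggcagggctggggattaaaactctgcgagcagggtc
Gucy1b3: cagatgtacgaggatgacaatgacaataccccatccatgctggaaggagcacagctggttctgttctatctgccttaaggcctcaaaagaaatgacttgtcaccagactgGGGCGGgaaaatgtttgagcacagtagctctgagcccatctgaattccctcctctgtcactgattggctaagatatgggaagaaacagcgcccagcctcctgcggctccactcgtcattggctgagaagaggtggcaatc
Motifs were searched on both strands. They were the AP-1 site TGACTCA, which on the opposite strand reads TGAGTCA, and the GATA site AGATAA with its variant form TGATAA. The core of the hypoxia response element was searched as ACGTG and, with the other purine in front, as GCGTG. The FOXO site was searched as GTAAACA, the GC box as GGGCGG, and the CArG box of smooth muscle genes by its usual consensus. The Ednrb window held 1 hypoxia core, written CACGC because it lies on the opposite strand, and 38.6% of the 32817 windows of this length in the table held one. The Gucy1b3 window held 1 GC box, found in 32.7% of windows. None of the 6 motifs was in the Edn1 window. The other shares were 4.46% for AP-1, 16.6% for GATA, 3.16% for FOXO and 1.47% for the CArG box. A match is a description of the letters and not evidence of binding.

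Nos3, at chr5:24364810-24384474 on the plus strand, encodes endothelial nitric oxide synthase. It stood at 14.99 and 7.24 FPKM in the endothelial controls and at 11.14, 16.32, 9.73 and 12.17 with Trap. Of the other 24 libraries, 1 reached 1 FPKM, a CD140a-positive control at 1.14. Endothelium lay above mTEC (mean 0.230 FPKM) by 3.37 ± 0.19 (adjusted p = 2.31e-14), and the 4 other populations did not differ from their neighbours in the order beyond their spread. Of 13 genes for other nitric oxide synthases, their cofactor and their regulators, none was higher and 5 were lower in CD146-positive mesenchyme than in endothelium, with a median of -0.68 against 0.05 over all genes. That count was near the 35.7% of all genes that passed there. The 5 included Ddah1, which breaks down an inhibitor of the synthases (-2.69 ± 0.20, adjusted p = 1.32e-11), Gch1, the first enzyme of cofactor synthesis (-2.34 ± 0.29, adjusted p = 1.97e-07), and Cav1, whose product holds the synthase inactive in caveolae. Cav1 stood at 450.9 ± 45.4 FPKM in endothelium and 199.9 ± 26.4 in CD146-positive mesenchyme (SD, n = 6).

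Soluble guanylate cyclase is a pair of an alpha and a beta subunit. Gucy1a3 (alpha-1; Gucy1a1 in GENCODE, chr3:82092427-82145789, minus strand) and Gucy1b3 (beta-1; Gucy1b1 in GENCODE, chr3:82032006-82074689, minus strand) are neighbours on the same strand, 17737 bases apart. Gucy1a3 stood at 130.18 and 171.14 FPKM in the controls and at 152.15, 140.93, 173.56 and 163.08 in the Trap libraries of CD146-positive mesenchyme. Gucy1b3 stood there at 71.08 and 95.73 in the controls and at 78.72, 68.27, 90.22 and 88.45 with Trap. No other library exceeded 14.78 FPKM for Gucy1a3 or 5.09 for Gucy1b3.

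The ratio of the 2 subunits in CD146-positive mesenchyme varied little between libraries. It was 1.90 ± 0.0991 (SD, n = 6), although Gucy1a3 itself ranged from 130.18 to 173.56 FPKM. Outside that population the order of the 2 differed. Gucy1a3 was next highest in endothelium, at 7.20 ± 4.25 FPKM (SD, n = 6), below CD146-positive mesenchyme by 4.36 ± 0.28 (adjusted p = 7.44e-13) and above CD140a-positive mesenchyme (2.02 ± 1.16) by 1.33 ± 0.28 (adjusted p = 0.00033). Gucy1b3 was next highest in CD140a-positive mesenchyme, at 3.62 ± 1.12 FPKM, below CD146-positive mesenchyme by 4.20 ± 0.22 (adjusted p = 2.90e-14). It did not differ there from endothelium (2.63 ± 1.52) beyond the spread (0.46 ± 0.22, adjusted p = 0.107). That pair passed without CD140a-positive Trap replicate 4 (0.56) or endothelial Trap replicate 2 (0.57). The endothelial values of both subunits were highest in Trap replicate 2, at 14.78 and 4.90 FPKM. That library had 214.99 FPKM of summed pericyte and smooth muscle markers, and the endothelial range was 187.48 to 236.87. The part of other cell types in the endothelial values of the 2 subunits was not tested.

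Pde5a, at chr3:122728947-122859374 on the plus strand, encodes the phosphodiesterase that breaks down cyclic GMP and is the target of sildenafil. In CD146-positive mesenchyme it stood at 35.37 and 38.78 FPKM in the controls and at 36.45, 36.24, 37.56 and 34.77 with Trap, above every other library and within a narrow range. The difference from CD140a-positive mesenchyme (9.26 ± 0.962 FPKM, SD, n = 6) was 1.86 ± 0.19 (adjusted p = 6.82e-09). CD140a-positive mesenchyme and cTEC (9.06 ± 1.05) did not differ beyond their spread. cTEC was above mTEC (5.94 ± 0.566) by 0.57 ± 0.19 (adjusted p = 0.0147), a call lost with a pseudocount of 0.1 (0.64), after rescaling to TPM (0.79), and without cTEC control replicate 1 (0.52) or mTEC control replicate 1 (0.51). mTEC was above endothelium by 1.601 ± 0.19 (adjusted p = 3.48e-08), and endothelium was lowest, at 0.06 to 2.94 FPKM (median 1.15). Pde5a was thus measured in epithelium, where Gucy1a3 and Gucy1b3 both stayed under 1 FPKM in every library.

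The genes that act on cyclic GMP after the cyclase were read from 18 targets and other phosphodiesterases, of which 16 passed the filter. Between CD140a-positive and CD146-positive mesenchyme 1 was higher and 11 lower, with a median of -1.39 against -0.04 over all genes. Prkg1, the cyclic GMP-dependent kinase of smooth muscle, was 38.09 ± 3.24 FPKM in CD146-positive mesenchyme, 10.27 ± 1.40 in CD140a-positive mesenchyme and 1.11 ± 0.394 in endothelium (SD, n = 6). Mrvi1, a substrate of that kinase on calcium stores, was lower in CD140a-positive than in CD146-positive mesenchyme by -2.41 ± 0.25 (adjusted p = 1.77e-08). Pde3a, a phosphodiesterase that cyclic GMP inhibits, was 162.0 ± 6.80 FPKM in CD146-positive mesenchyme and 21.56 ± 1.99 in CD140a-positive mesenchyme (-2.85 ± 0.31, adjusted p = 3.32e-08). Between CD146-positive mesenchyme and endothelium 9 of the 16 were higher and 4 lower, with a median of 1.13 against 0.05. Prkg1 differed there by 4.30 ± 0.17 (adjusted p = 2.33e-17). The split was 9 and 2 after rescaling to TPM, with a median of 1.97.

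Other cyclases and natriuretic peptide genes made a list of 13, of which 10 passed the filter. Between CD146-positive mesenchyme and endothelium 2 were higher and 2 lower, with a median of -0.04 against 0.05. Gucy1a2, the alpha-2 subunit that can take the place of alpha-1 beside beta-1, was 29.67 ± 2.56 FPKM in CD146-positive mesenchyme and 0.600 ± 0.660 in endothelium (4.32 ± 0.23, adjusted p = 2.01e-14). Npr1, the receptor cyclase for atrial natriuretic peptide, was 19.38 ± 5.46 FPKM in endothelium and 1.93 ± 1.54 in CD146-positive mesenchyme (-3.00 ± 0.25, adjusted p = 1.65e-10). The other 6 of the 10 did not pass in this comparison.

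Among 34 other receptors for vasoactive signals, 33 passed the filter. Between CD140a-positive and CD146-positive mesenchyme 5 were higher and 13 lower, with a median of -0.31 against -0.04 over all genes, or -0.81 after rescaling to TPM with the same counts. Npy1r, a receptor for the sympathetic transmitter neuropeptide Y, was 24.1 ± 2.68 FPKM in CD146-positive and 0.517 ± 0.655 in CD140a-positive mesenchyme (-4.16 ± 0.22, adjusted p = 3.41e-14). Adra2a, an alpha-2 adrenergic receptor, was lower in CD140a-positive mesenchyme by -2.78 ± 0.27 (adjusted p = 3.54e-09). Between CD146-positive mesenchyme and endothelium 13 were higher and 8 lower, with a median of 0.29 against 0.05, which was 0.82 after rescaling to TPM and 0.14 under quantile normalization. Avpr1a, the vascular vasopressin receptor, was higher in CD146-positive mesenchyme by 4.96 ± 0.24 (adjusted p = 2.65e-15), and Aplnr, the apelin receptor, was lower there by -7.26 ± 0.16 (adjusted p = 4.73e-22). Of 19 Gq and G12/13 effectors and RGS proteins, 1 was higher and 8 were lower in CD140a-positive than in CD146-positive mesenchyme, with a median of -0.34. Rgs4, which shortens Gq signals, differed there by -4.37 ± 0.27 (adjusted p = 5.27e-13). Between CD146-positive mesenchyme and endothelium the split went the other way, with 4 of the 19 higher and 9 lower and a median of -0.09 against 0.05.

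Treatment with Trap was then compared with control in each population. None of the 50 changes of a member passed the limma test. The share of all genes that passed was 0% in CD140a-positive mesenchyme, 0.0183% in CD146-positive mesenchyme, 0.00609% in cTEC, 0.347% in mTEC and 1.74% in endothelium. At an unadjusted p under 0.05 there were 0 members in CD140a-positive mesenchyme, 0 in CD146-positive mesenchyme, 1 in cTEC, 1 in mTEC and 3 in endothelium. Of all genes 3.71%, 5%, 2.28%, 7.49% and 14.9% were under that value in the same order.

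**Figure D3:**
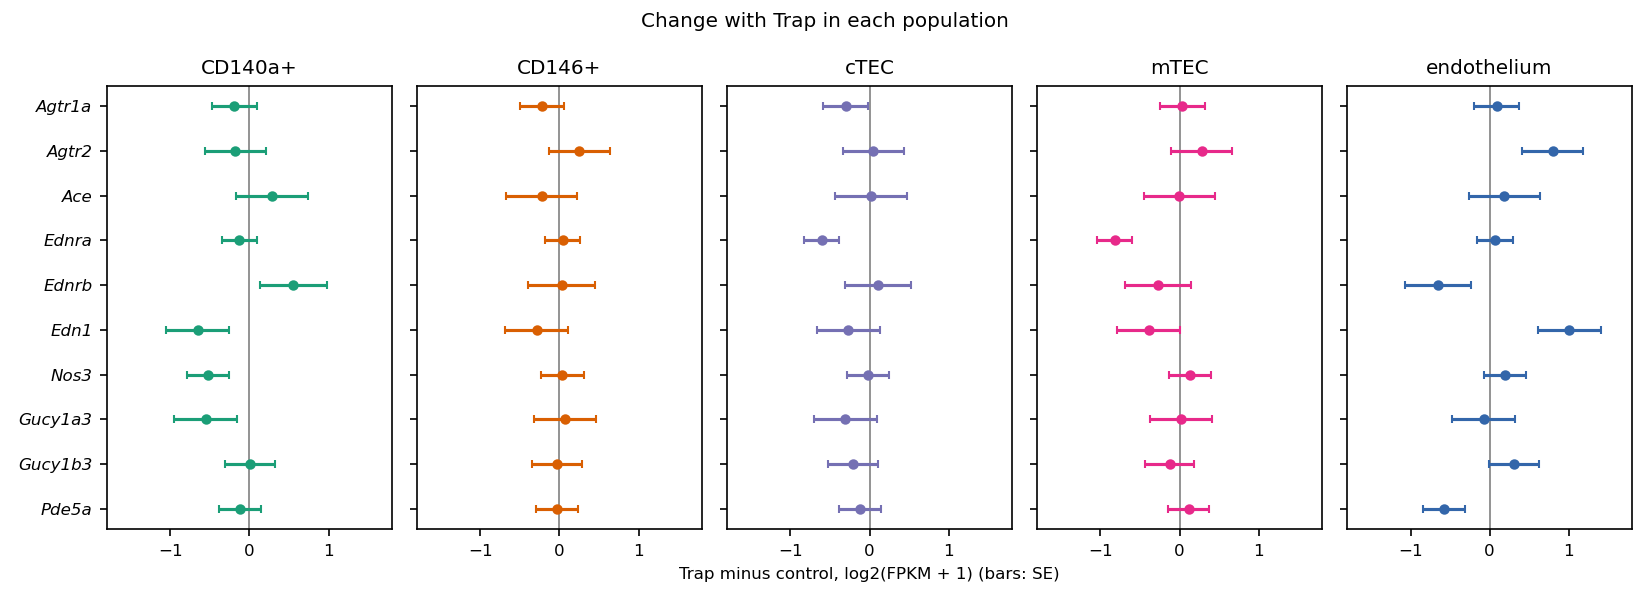
Change of each member with Trap (Trap minus control, log2(FPKM + 1)) in the 5 populations, with bars of 1 SE from the limma fit. Edn1 in endothelium, at 1.01, is the highest value plotted and Ednra in mTEC, at -0.82, the lowest, and neither passed after adjustment.

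In endothelium, Edn1 averaged 97.2 ± 8.99 FPKM over the 2 controls (SD) and 199.5 ± 39.8 over the 4 Trap libraries (SD). All 4 Trap libraries lay above both controls, as they did for 5.36% of all genes there. The change was 1.01 ± 0.40 (unadjusted p = 0.0175, adjusted p = 0.213), and the adjusted p lay between 0.134 and 0.570 in the alternatives run. In the other 4 populations the Trap libraries of Edn1 overlapped the controls, with differences of -0.65 in CD140a-positive mesenchyme, -0.29 in CD146-positive mesenchyme, -0.27 in cTEC and -0.39 in mTEC. The change in endothelium exceeded the mean of those 4 by 1.41 ± 0.44 (unadjusted p = 0.0039, adjusted p = 0.176). The share of all genes that passed for this difference was 0.28%, and the adjusted p lay between 0.118 and 0.456 in the alternatives.

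For Ednrb, a receptor for that ligand, the order of the endothelial groups was the opposite. It averaged 47.0 ± 12.6 FPKM over the controls (SD) and 29.5 ± 6.17 over the Trap libraries (SD), and all 4 Trap libraries lay below both controls, as for 9.48% of all genes. The change was -0.65 ± 0.42 (95% interval -1.52 to 0.22, adjusted p = 0.522). Set side by side per library, Edn1 was 1.85 to 11.4 times the level of Ednrb in endothelium (5.52 ± 3.53, SD, n = 6). The ratio was 2.39 and 1.85 in the controls and 4.11, 6.51, 6.91 and 11.4 with Trap, and the 2 groups did not overlap, which follows from the values of both genes. The pericyte and smooth muscle markers, highest in CD146-positive mesenchyme as Pde5a was, summed to 236.67 and 236.87 FPKM in the endothelial controls and to 187.48 to 225.49 with Trap, and the endothelial markers to 1844.72 and 1858.46 in the controls and 1624.18 to 1771.21 with Trap. Their part in these values was not tested.

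For the enzymes made by endothelium the groups overlapped. The difference was 0.19 ± 0.27 for Nos3 (95% interval -0.36 to 0.75) and 0.19 ± 0.45 for Ace (95% interval -0.74 to 1.12). Both turned sign without endothelial control replicate 2, which had the lower level of the 2 controls for each gene (7.24 and 20.52 FPKM). Pde5a, at a low level in endothelium, stood at 2.94 and 0.92 FPKM in the controls and at 1.38, 1.68, 0.71 and 0.06 with Trap. Its difference was -0.58 ± 0.26 (unadjusted p = 0.0374, adjusted p = 0.300), and it passed without endothelial control replicate 2 (-1.10, adjusted p = 0.0469), when a single control at 2.94 FPKM was left. Agtr2 was 0.01 and 0 FPKM in the endothelial controls and 1.36, 0, 1.92 and 0.35 with Trap, a difference of 0.80 (unadjusted p = 0.0485, adjusted p = 0.331). The 10 fibroblast markers, of the population in which Agtr2 is abundant, had a median difference of 0.62 in the same comparison, with 1 of 10 higher. Their sum was 255.09 and 441.41 FPKM in the controls and 318.82 to 450.52 with Trap. In CD146-positive mesenchyme the sum was 277.31 to 422.9, although 6 of the 10 were higher there than in endothelium and 2 lower. The endothelial sum may thus rest on few of the markers, and its part in the level of Agtr2 was not tested.

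**Figure D4:**
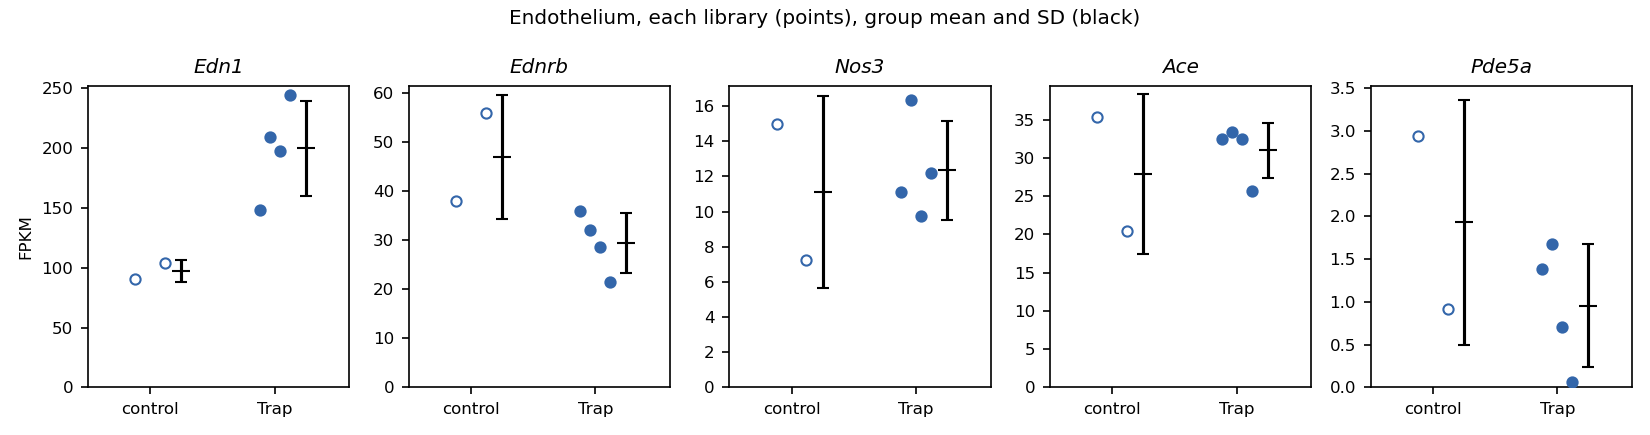
FPKM of 5 members in the 2 control (open) and 4 Trap (filled) libraries of endothelium, with the group mean and SD beside them in black. The Trap libraries of Edn1 lie between 147.73 and 243.81, above the controls, those of Ednrb lie between 21.44 and 35.95, below the controls, and the groups overlap for Nos3, Ace and Pde5a.

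In CD146-positive mesenchyme, Trap and control libraries overlapped for all 10 members, while they did not for 12.6% of all genes. The difference was 0.07 for Gucy1a3 (95% interval -0.74 to 0.89), -0.03 for Gucy1b3 (95% interval -0.67 to 0.62) and -0.03 for Pde5a (95% interval -0.57 to 0.51). Among the receptors it was 0.04 for Ednra (95% interval -0.42 to 0.50), 0.03 for Ednrb (95% interval -0.84 to 0.90) and -0.22 for Agtr1a (95% interval -0.80 to 0.36). The signs for Gucy1b3 and Pde5a turned after rescaling to TPM. In CD140a-positive mesenchyme the groups overlapped for all 10 members too (11.9% of all genes did not overlap), with differences of -0.18 for Agtr2 (95% interval -0.97 to 0.61), -0.19 for Agtr1a and 0.28 for Ace.

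Ednra, at low levels in epithelium, had all Trap libraries on 1 side of the controls in both epithelial populations. In mTEC it stood at 2.94 and 3.32 FPKM in the controls and at 0.90, 0.79, 1.54 and 2.46 with Trap. All Trap libraries lay below both controls, as for 8.4% of all genes, and the change was -0.82 ± 0.22 (unadjusted p = 0.0011, adjusted p = 0.136). It passed without mTEC Trap replicate 4 (-1.01, adjusted p = 0.0130), and the adjusted p lay between 0.0130 and 0.897 in the alternatives. In cTEC it stood at 5.62 and 4.93 FPKM in the controls and at 2.32, 3.35, 3.50 and 3.46 with Trap. Again all Trap libraries were lower, as for 7.87% of all genes, and the change was -0.60 ± 0.22 (unadjusted p = 0.0118, adjusted p = 1). Averaged over the 5 populations the difference for Ednra was -0.29 ± 0.10 (unadjusted p = 0.0075, adjusted p = 0.209), where 0.426% of all genes passed. Among the markers, the fibroblast sum in mTEC was 209.28 and 227.58 FPKM in the controls and 128.2 to 295.1 with Trap, and the pericyte and smooth muscle sum was 512.57 and 595.95 in the controls and 531.47 to 765.24 with Trap. In cTEC the fibroblast sum was 27.11 and 28.8 in the controls and 25.88 to 37.56 with Trap, and the pericyte and smooth muscle sum 101.63 and 125.51 in the controls and 119.55 to 149.08 with Trap. The part of these cell types in the level of Ednra was not tested. Gucy1b3 in cTEC also lay below both controls in all Trap libraries, at values under 0.40 FPKM.

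In the pathway lists, few genes passed with Trap. Nostrin, which draws endothelial nitric oxide synthase away from the membrane, was 14.3 ± 2.96 FPKM over the 2 endothelial controls (SD) and 3.59 ± 2.57 over the 4 Trap libraries, a change of -1.92 ± 0.44 (adjusted p = 0.0211). It was the 1 of the 13 genes for other nitric oxide synthases, their cofactor and their regulators that passed in endothelium. Plcb4, a phospholipase C that Gq-coupled receptors switch on, was 46.0 ± 4.43 FPKM in the controls and 84.2 ± 15.2 with Trap (0.84 ± 0.17, adjusted p = 0.0092), the 1 of 19 effector genes that passed. Its change exceeded the mean of the other 4 populations by 0.93 ± 0.19 (adjusted p = 0.0241). Of the cyclic GMP list 1 of 16 fell in endothelium, Pde1a (-1.26 ± 0.29, adjusted p = 0.0209), at a mean of 1.44 FPKM. Pde1a was 65.0 ± 3.39 FPKM in CD146-positive mesenchyme (SD, n = 6), and the 12 pericyte and smooth muscle markers had a median difference of -0.54 with Trap in endothelium, none of them passing. Their part in the level of Pde1a was not tested. Of the other receptors 1 of 33 rose, Cysltr1 (1.03 ± 0.23, adjusted p = 0.0175). In mTEC 1 gene of the endothelin list passed, Kel (-1.40 ± 0.26, adjusted p = 0.0065). Pde1a, Cysltr1 and Kel were below the level set for naming and are named because the counts are small. These calls did not hold in every alternative, which for these genes were run after their values were seen. In fits on the 6 libraries of 1 population alone no gene passed in endothelium or mTEC, and the adjusted p was 0.475 for Plcb4, 0.536 for Nostrin, 0.663 for Pde1a and Cysltr1 and 0.890 for Kel. Plcb4 was otherwise lost without endothelial control replicate 1 (0.75, adjusted p = 0.120), where its excess over the other populations was lost too (0.84, adjusted p = 0.148), as it was under quantile normalization (adjusted p = 0.0540). Nostrin, Pde1a, Cysltr1 and Kel were lost with a pseudocount of 0.1 and after rescaling to TPM, and Pde1a also under quantile normalization. Leaving out 1 library, Nostrin was lost without endothelial control replicate 1 (-2.12), control replicate 2 (-1.72) or Trap replicate 4 (-1.56). Pde1a was lost without control replicate 1 (-1.12) or Trap replicate 4 (-1.08), Cysltr1 without control replicate 1 (1.22) or 2 (0.84), and Kel without mTEC control replicate 1 (-0.82, adjusted p = 0.513).

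In CD140a-positive mesenchyme, CD146-positive mesenchyme and cTEC no gene of the 7 lists passed the limma test. Of the 107 genes tested, 2, 7 and 1 had an unadjusted p under 0.05, or 1.87%, 6.54% and 0.935%, beside 3.71%, 5% and 2.28% of all genes. In mTEC 4 of the 107 were under that value, or 3.74%, beside 7.49% of all genes. In endothelium there were 16, or 15%, beside 14.9% of all genes. After adjustment 1 of the 107 passed in mTEC and 4 in endothelium, where 0.347% and 1.74% of all genes passed.

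The genes whose levels ran most like a member over the 30 libraries were found by Pearson's r on log2(FPKM + 1). The libraries fall into 5 populations, so r mainly describes the order of the populations, and no test is given. Agtr2 ran closest to Pdgfra, the gene of the sorting marker CD140a (r = 0.9889), and Agtr1a to Prrx1, a mesenchymal transcription factor (r = 0.9849). Nos3 ran closest to Sox18 (r = 0.986), Tie1 (r = 0.9819) and Tal1 (r = 0.98), and Ace to Fbln2 (r = 0.9706) and Tek (r = 0.965). Gucy1b3 ran closest to Dmd, the dystrophin gene (r = 0.9738), and Gucy1a3 to Rcan2 (r = 0.9707). The nearest genes were Limk1 for Ednra (r = 0.9665), Dock4 for Edn1 (r = 0.9681), Dzip1l for Pde5a (r = 0.9563) and Mef2a for Ednrb (r = 0.9428). Ednrb, high in both CD146-positive mesenchyme and endothelium, had the lowest such value among the members.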

How the data were processed

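RNA sequencing of 30 sorted libraries was read from 1 table of FPKM values that the authors deposited, for 18847 genes, with no read counts. The submitters' processing notes name bcl2fastq 2.17, STAR and DESeq2 with the builds GRCm38 and mm10; the program and annotation behind the FPKM are not given in the sources here. In all, 27 symbols altered to dates by a spreadsheet were restored by Ensembl identifier.

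In R 4.3.3, limma 3.58.1 was fitted to log2(FPKM + 1) of 16425 genes with 10 group means, a variance trend and two-sided tests, p-values being adjusted over all genes within each of 17 contrasts. The procedure was run on simulated data with 1 spread per gene in all groups. The fit assumes the same, so that run cannot test the shared spread. FPKM hold no depth, so no counting interval is given. Alternatives, 40 in all, covered pseudocount, filter, scaling, variance trend, blocks, separate fits and leaving out each library.

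The members and gene lists were chosen with earlier results of these data known. From each list, up to 4 genes of largest change that passed and reached 5 FPKM in 1 group could be named per contrast, and 3 genes per member for likeness. Every list gene tested is counted; 1 gene that the rule would have named is not reported here.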

Additional observations from a re-analysis of the deposited data

Results flagged for a closer look

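A library standing far from the others of its group, by Dixon's criterion at the 95% level, was found in 4 of the 37 groups of 4 Trap libraries in which a member reached 1 FPKM, where chance alone gives about 1 in 20. Agtr2 in CD140a-positive mesenchyme was 320.94 FPKM in Trap replicate 4 against 202.46 to 215.76 in the other 3, still near the controls at 247.84 and 275.31. Ednra in cTEC was 2.32 FPKM in Trap replicate 1 against 3.35 to 3.50. Ednrb in mTEC was 1.74 FPKM in Trap replicate 2 against 0.12 to 0.38, with a control library at 1.6. Ace in endothelium was 25.66 FPKM in Trap replicate 4 against 32.43 to 33.46, between the controls at 20.52 and 35.31.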

How the results depend on the processing

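Of the 77 member differences between populations that passed, 73 passed in every alternative run. The 4 others were Ace in CD146-positive mesenchyme against cTEC and in cTEC against mTEC, and Pde5a in mTEC against CD140a-positive mesenchyme and against cTEC. With Trap, the count of members that passed was 0 to 1 when 1 library was left out: 1 (Ednra) in mTEC without Trap replicate 4 and 1 (Pde5a) in endothelium without control replicate 2, where the single control left is assumed to vary like the other groups. The sign of small differences turned in some settings, and the cause was not tested. Ace in CD146-positive mesenchyme against mTEC was 0.37 with quantile normalization and from -0.54 to 0.19 leaving out 1 library. Agtr1a in CD140a-positive against CD146-positive mesenchyme was 0.0498 with upper quartile scaling, 0.0567 with quantile normalization and from -0.13 to 0.0682 leaving out 1 library. Pde5a in CD140a-positive mesenchyme against cTEC ranged from -0.0233 to 0.0794 leaving out 1 library. For Trap in CD146-positive mesenchyme, the leave-one-out ranges were -0.0739 to 0.15 for Ednra, -0.0888 to 0.20 for Ednrb, -0.12 to 0.27 for Gucy1a3, -0.24 to 0.18 for Gucy1b3 and -0.10 to 0.03 for Pde5a. Gucy1b3 was 0.0047 after rescaling to TPM and 0.0151 with quantile normalization, and Pde5a 0.0011 after rescaling to TPM. The ranges were -0.15 to 0.72 for Ace in CD140a-positive mesenchyme, -0.19 to 0.56 for Ace and -0.28 to 0.67 for Nos3 in endothelium. Quantile normalization moved the median of all genes by up to 0.364 in comparisons with mTEC.

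The labels do not say whether libraries of 1 replicate number share pups, and correlations over all genes cannot decide it. Deviations from the group means correlated at -0.0496 to 0.102 over 60 pairs of populations with the same treatment and number. Over 10 control and Trap pairs of 1 number they correlated at -0.275 to 0.0809. With 2 controls the deviations mirror each other, so control replicates 1 and 2 give the same value. With a replicate block by number, Trap in CD146-positive mesenchyme gave -0.0350 for Ednra, 0.0325 for Gucy1b3 and 0.0575 for Pde5a, and Edn1 in CD146-positive mesenchyme against cTEC passed (-0.68, adjusted p = 0.0342). It also passed with a replicate block by treatment and number (adjusted p = 0.0388). Over all genes, 286 passed with Trap in endothelium (176 to 307 with other settings, 89 to 468 leaving out 1 library), 57 in mTEC (9 to 199 and 30 to 149), 3 in CD146-positive mesenchyme (1 to 13 and 2 to 19), 1 in cTEC (0 to 2 and 1 to 3) and 0 in CD140a-positive mesenchyme (0 to 4 and 0 to 9), and 0 in each fit on 6 libraries alone. For the difference of endothelium from the others 46 passed (24 to 56 and 31 to 223) and for the mean over 5 populations 70 (25 to 71 and 26 to 90). As the depth is unknown, values under about 1 FPKM carry an error that cannot be given.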

Other observations

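The epithelial populations held parts of the nitric oxide and cyclic GMP pathway that the 10 genes do not cover. Gucy1a2, the alpha-2 cyclase subunit, was 20.4 ± 1.23 FPKM in cTEC and 1.72 ± 0.818 in mTEC (SD, n = 6), a difference of 2.99 ± 0.23 (SE, limma adjusted p = 4.28e-11). Gucy1b3, the beta-1 subunit it pairs with, was 0.13 ± 0.108 FPKM in cTEC, and Gucy1b2, the other beta subunit, was at most 0.26. Nos2, the inducible nitric oxide synthase, was 16.02 ± 2.10 FPKM in mTEC and 0.952 ± 0.401 in cTEC (-3.11 ± 0.24, adjusted p = 2.40e-11). Pde1c, a calmodulin-dependent phosphodiesterase, was 18.7 ± 3.13 FPKM in mTEC and 1.11 ± 0.386 in cTEC (-3.19 ± 0.16, adjusted p = 1.12e-14).

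Between cTEC and mTEC 41.2% of all genes passed, and the list counts that follow are to be read against that share. Of the 13 genes for other nitric oxide synthases, their cofactor and their regulators, 1 was higher and 8 were lower in cTEC. Their median was -0.88 against -0.17 over all genes. The split was 1 and 5 with quantile normalization, with a median of -0.42. Of the 12 further angiotensin genes tested 2 were higher and 7 lower, or 3 and 4 with quantile normalization. Enpep, which encodes the Ly51 marker used to sort the populations, was among the higher ones (3.08 ± 0.23). Ren1, the renin gene, was 8.79 ± 4.22 FPKM in mTEC and 0.218 ± 0.174 in cTEC (-2.86 ± 0.33, adjusted p = 6.52e-08). Medullary epithelium is known to transcribe many genes of other tissues as self antigens, and whether that applies to these genes was not tested.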
